A study of Danio rerio with 27 samples.

Results

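The transcriptional response of zebrafish larvae to AS1842856, a cell-permeable inhibitor of the transcription factor Foxo1, was measured at 10 °C, a lethal low temperature for this species. The comparison set the 3 libraries of group 10C_AS against the 3 libraries of group 10C_DMSO, 6 of the 27 RNA-seq libraries of the series. It covered all 24101 genes of the deposited table. The spread behind each p-value was estimated from all 27 libraries together. All larvae were whole animals of the AB line, a standard laboratory strain, and were 96 h old when treatment began. 10C_AS larvae spent 12 h at 10 °C with 0.5 µM AS1842856, and 10C_DMSO larvae spent the same time at 10 °C with 0.1% DMSO, the solvent of the inhibitor. 28C_AS and 28C_DMSO larvae received the same additions for 12 h at 28 °C, the usual rearing temperature. 10C_PD larvae received 5 µM PD0325901, which blocks activation of the kinase ERK, and 10C_SB larvae received 50 µM SB203580, which inhibits p38 kinases, both for 12 h at 10 °C. Each of these groups had 3 libraries.

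FoxO proteins are transcription factors that sit downstream of insulin. When insulin or growth factors activate the kinase AKT, FoxO proteins are phosphorylated and leave the nucleus, and when AKT is quiet they enter it and switch on genes of cell cycle arrest, cell death, autophagy and fasting metabolism. AS1842856 binds Foxo1 and blocks its activity on target genes without removing the protein. The comparison asks which transcripts of cold-exposed larvae depend on Foxo1 activity, as far as a single dose of this inhibitor shows it.

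Levels are given as scaled TPM, which are transcript abundances normalised for length and library total and then divided by a scale factor for each library, and changes are differences on the log2(scaled TPM + 1) scale, where the added 1 understates the change of genes with low levels. Depth is unknown because TPM values keep no read counts. A gene was called when limma gave an adjusted p of at most 0.05 and a fold of at least 1.5. Nothing in the labels says that the libraries of a group came from separate clutches or dishes, so a p-value here reflects only how far these particular samples vary. Each library came from pooled whole larvae, with dead fish removed before collection, so fewer cells of a type and less RNA per cell cannot be told apart. The larvae held transcripts of all 14 tissue marker lists that were counted, with 21 to 81 identifiers measured per list.

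One control library stood apart. The share of TPM from the mitochondrial genome was 12.0 to 12.9% in 10C_AS, against 8.42% in 10C_DMSO replicate 1 and 11.2% and 11.4% in the other 10C_DMSO libraries. The residual SD on the log2 scale was 0.228 to 0.231 in 10C_AS, against 0.275 in 10C_DMSO replicate 1 and 0.240 and 0.258 in the other 10C_DMSO libraries. An alternative limma fit with library weights gave replicate 1 a weight of 0.499, while the main fit used no weights. The gene calls and list counts of 10C_AS against 10C_DMSO were therefore also computed without 10C_DMSO replicate 1. Group means, summed identifiers, the fit of the 6 libraries alone and the differences between temperatures are given only with that library.

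Fewer than 1 in 100 genes passed the call under AS1842856 at 10 °C. Named falls in 10C_AS included bbc3, ccng2, pim2 and herpud1, while the death ligand gene tnfsf10, her4.1 of the Notch pathway and the egr4 and fosaa transcription factor genes rose. The lists of death and survival genes as a whole had medians near 0. The known FoxO targets bbc3 and ccng2 fell by close to 2-fold in level, and no FoxO factor gene passed the call. limma called 223 of 24101 genes, 0.925% of all, of which 98 were higher (0.407%) and 125 lower (0.519%) in 10C_AS. An unadjusted p under 0.05 was reached by 4644 genes, so the calls do not count all genes that may have moved. The groups did not overlap in 219 of the 223 called genes, against 21.4% of all genes, which the choice by p makes likely. The median size of the change was 0.80 over the called genes, and the median change over all genes was 0.00.

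Much of this count rested on 10C_DMSO replicate 1. Without that library 88 genes were called (0.365%), 40 higher (0.166%) and 48 lower (0.199%), and 69 of the 223 genes were called with and without it (0.286%), 30 of them higher (0.124%) and 39 lower (0.162%). All 223 kept the sign of their change without it, but 166 changed by less. Replicate 1 was the lowest of the 3 control libraries in 67 of the 98 genes called higher and the highest in 74 of the 125 called lower. Leaving out 10C_AS replicate 2 left 149 genes and leaving out 10C_DMSO replicate 2 gave 290. The count of genes called higher was 64, 56 and 59 without each of the 10C_AS libraries in turn and 154 without 10C_DMSO replicate 2. The lower count stayed at 90 or more without each 10C_AS library and was 136 without 10C_DMSO replicate 2.

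**Figure D1:**
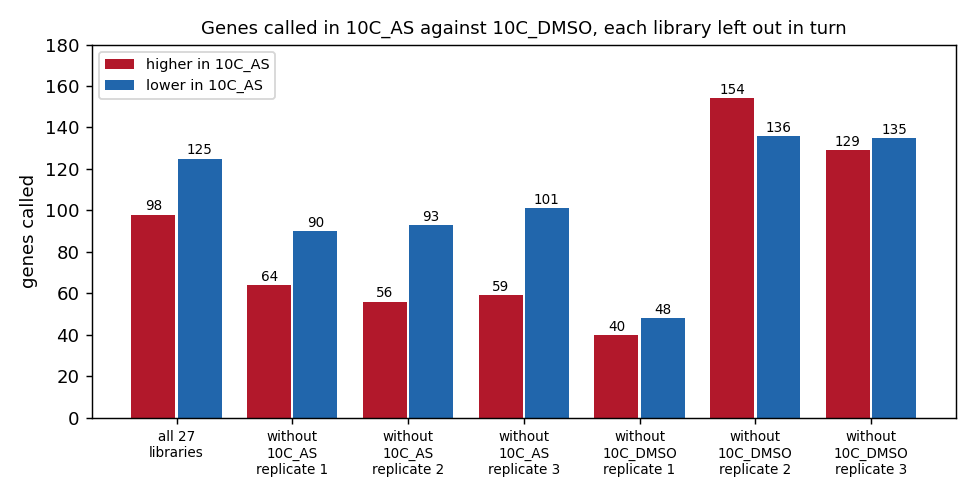
Number of genes called in 10C_AS against 10C_DMSO with all libraries and with each library left out in turn, with bars for genes higher (left) and lower (right) in 10C_AS. The count was 223 with all libraries, 88 without 10C_DMSO replicate 1 and 290 without 10C_DMSO replicate 2.

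Among the falls, the genes with the closest link to FoxO were bbc3 and ccng2. bbc3 encodes Puma, a BH3-only protein that triggers apoptosis and whose gene FoxO3 activates in mammals. Its level was 5.46, 5.16 and 4.58 in the 10C_AS libraries, against 10.3, 10.5 and 10.3 in 10C_DMSO. The groups were far apart and the controls almost identical, and the change was -0.91 ± 0.11 (SE, limma adjusted p = 4.48e-05). ccng2 encodes cyclin G2, which holds cells out of the cycle and is a FoxO target in mammals. Its level was 20.9, 20.8 and 25.3 in 10C_AS, against 50.5, 33.7 and 48.9 in 10C_DMSO. Here the controls spread more, with replicate 2 the lowest, and the change was -0.94 ± 0.11 (SE, limma adjusted p = 7.78e-05). Leaving out each library in turn kept both calls, with changes of -0.85 to -0.96 for bbc3 and of -0.84 to -1.13 for ccng2. The call without 10C_DMSO replicate 1 was a condition for naming both among the largest falls.

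Genes on both sides of the decision between survival and death fell as well. pim2 encodes a serine/threonine kinase that supports survival of blood and other cells. Its level was 4.45, 4.30 and 5.13 in 10C_AS, against 8.77, 10.2 and 10.8 in 10C_DMSO, a change of -0.96 ± 0.17 (SE, limma adjusted p = 0.00382). mcl1b, an anti-apoptotic member of the Bcl-2 family, was at 63.1, 65.6 and 63.4 in 10C_AS and at 103, 95.4 and 95.8 in 10C_DMSO. All 10C_AS libraries lay below all controls, and the change of -0.61 (limma adjusted p = 0.000496) became -0.57 without 10C_DMSO replicate 1, which is under the fold threshold. bada, a pro-apoptotic BH3-only gene whose product AKT keeps inactive by phosphorylation in mammals, had 21.3, 22.1 and 25.5 in 10C_AS, against 41.9, 36.6 and 32.4 in 10C_DMSO. Replicate 1 was the highest control, and the change of -0.66 (limma adjusted p = 0.000143) was -0.57 without it, also under the threshold. diabloa, whose product blocks inhibitors of caspases once it leaves mitochondria, had 11.7, 18.3 and 10.1 in 10C_AS, against 18.9, 23.1 and 23.8 in 10C_DMSO. The highest 10C_AS library came within a unit of the lowest control, and the change of -0.71 (limma adjusted p = 0.0125) was called in 4 of the 6 fits that left out 1 library.

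The 12 largest falls named here are those of called genes with at least 5 scaled TPM in a group and no overlap. They also had a call without 10C_DMSO replicate 1 and a symbol of their own that was no clone or locus name. Some called genes left out by this rule fell further. gbp showed the lowest adjusted p of these 12. Its product binds glycogen synthase kinase 3 and thereby favours Wnt signaling. Levels were 24.2, 22.2 and 23 in 10C_AS, against 40.6, 46.0 and 42.6 in 10C_DMSO, a change of -0.87 ± 0.08 (SE, limma adjusted p = 2.07e-06). ubald1b had 6.99, 7.36 and 7.35 in 10C_AS, against 14.4, 13.8 and 14.5 in 10C_DMSO, and fell by 0.89 ± 0.10 on the log2 scale (SE, limma adjusted p = 1.56e-05). Neither gene had a library near the other group. herpud1, which serves degradation of misfolded proteins at the endoplasmic reticulum, had 23.9, 21.0 and 20.7 in 10C_AS, against 33.6, 33.9 and 38.7 in 10C_DMSO, a change of -0.67 ± 0.08 (SE, limma adjusted p = 2.75e-05). It was the single member called among 62 genes of endoplasmic reticulum folding and degradation, where no member was called higher. The shares over all genes were 0.407% higher and 0.519% lower, so 1 call is near the background.

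Other falls belonged to no FoxO list. foxq1b, a forkhead factor gene of another subfamily, had 16.3, 17.6 and 16.6 in 10C_AS, against 26.7, 30.0 and 32.2 in 10C_DMSO, a change of -0.78 ± 0.08 (SE, limma adjusted p = 1.46e-05). Its paralog foxq1a had 29.6, 25.2 and 31.3 in 10C_AS, against 43.9, 40.7 and 57.2 in 10C_DMSO. The fall of 0.69 on the log2 scale in foxq1a (limma adjusted p = 0.0185) was 0.74 without 10C_DMSO replicate 1, where it was not called (limma adjusted p = 0.0524). atp8a2, which encodes a phospholipid flippase of neurons, had 18.1, 13.5 and 13.9 in 10C_AS, against 31.8, 26.3 and 34.0 in 10C_DMSO. cp, the copper oxidase ceruloplasmin of plasma, had 15.3, 16.9 and 15.5 in 10C_AS, against 26.4, 30.0 and 26.6 in 10C_DMSO. The changes were -0.97 for atp8a2 and -0.76 for cp (limma adjusted p = 0.00108 and 0.0011). flna, the actin cross-linker filamin A, and adma, the vasodilator peptide adrenomedullin, completed the 12 largest falls under the naming rule. Their changes were -0.64 and -0.63.

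**Figure D2:**
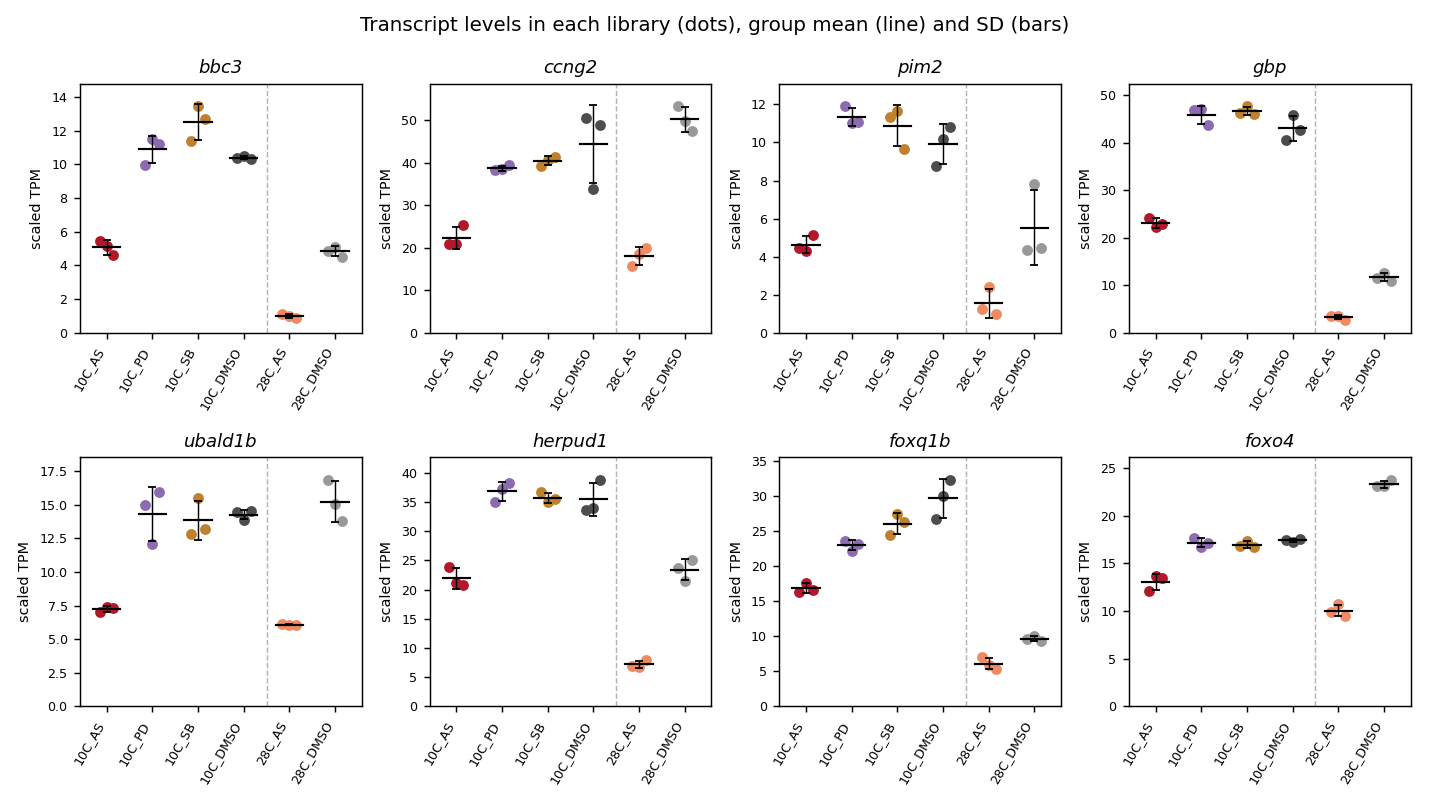
Scaled TPM of 8 genes in each library of 10C_AS, 10C_PD, 10C_SB, 10C_DMSO, 28C_AS and 28C_DMSO, with the group mean as a line and the SD of 3 libraries as bars. The 3 libraries of 10C_AS lay below those of 10C_DMSO in all 8 genes, for example at 4.58 to 5.46 for bbc3, against 10.3 to 10.5. For the genes among the largest falls this was a condition of the choice.

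Most members of the FoxO target list were not called. Of 70 identifiers for known FoxO target genes of vertebrates, 1 was called higher and 2 lower, beside 0.407% and 0.519% of all genes, and the median change was 0.03. The 2 lower members were bbc3 and ccng2. The 1 higher member was tnfsf10, the death ligand TRAIL that FoxO factors activate in mammalian cells. It had 4.69, 4.67 and 4.86 in 10C_AS, against 2.73, 2.75 and 2.85 in 10C_DMSO, a change of 0.60 ± 0.06 (SE, limma adjusted p = 1.56e-05). Its libraries were tightly grouped, and its direction was opposite to that of bbc3.

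Several further genes of the pathway passed the adjusted p but not the fold threshold, and these were chosen after their values were seen. The examples given are falls, whereas of the 70 FoxO target identifiers 40 had positive and 30 negative changes. klf2b, a Kruppel-like factor gene, had 20.7, 21.8 and 21.9 in 10C_AS, against 31.1, 31.0 and 33.1 in 10C_DMSO, a change of -0.54 (limma adjusted p = 0.000422). pim1, a second Pim kinase gene, changed by -0.53 and irs2a, which encodes an adaptor of the insulin receptor and is a FoxO target in mammalian liver, by -0.39 (limma adjusted p = 0.00308 and 0.00504). fbxo32, which encodes the muscle ubiquitin ligase atrogin-1 and is the best known FoxO target of wasting muscle, had 5.52, 5.18 and 7.09 in 10C_AS, against 6.57, 8.69 and 9.66 in 10C_DMSO. Its groups overlapped, and the change of -0.42 did not pass (limma adjusted p = 0.367). None of the 50 insulin, PI3K and AKT signaling genes was called in either direction, beside 0.925% of all genes.

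The FoxO genes themselves changed little at 10 °C, and 0 of 7 were called, beside 0.925% of all genes. foxo4 was nearest to the threshold, with 12.1, 13.7 and 13.4 in 10C_AS, against 17.5, 17.2 and 17.5 in 10C_DMSO. All 10C_AS libraries lay below the controls, and the change of -0.39 ± 0.05 (SE, limma adjusted p = 0.000255) was under the fold threshold. foxo1a, 1 of the 2 zebrafish genes for the target of the inhibitor, had 9.39, 10.4 and 10.7 in 10C_AS, against 8.03, 8.46 and 8.47 in 10C_DMSO, a change of 0.26 (limma adjusted p = 0.141). Its co-ortholog foxo1b changed by -0.19, and foxo3a, foxo3b, foxo6a and foxo6b by -0.11, -0.02, -0.18 and -0.30, all with adjusted p over 0.05. The paper, which tested read counts, reported foxo1b, foxo4 and foxo6a as downregulated by AS1842856. Here the changes of foxo1b, foxo4 and foxo6a were negative too, but none was called. The level of foxo1 mRNA is no check of the treatment, since the inhibitor acts on the protein.

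The wider death and survival lists were mixed. Over all genes 0.407% were called higher and 0.519% lower. Of 38 pro-apoptotic identifiers, 1 was higher (tnfsf10) and 3 lower (bbc3, diabloa and bada), with a median change of 0.02. Of 25 anti-apoptotic and Pim kinase identifiers 0 were higher and 2 lower (pim2 and mcl1b), with a median of 0.07. Of 49 p53 pathway identifiers 0 were higher and 1 was lower, which was bbc3 again. Without 10C_DMSO replicate 1 the pro-apoptotic count was 1 higher and 2 lower and the anti-apoptotic count 0 higher and 1 lower.

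**Figure D3:**
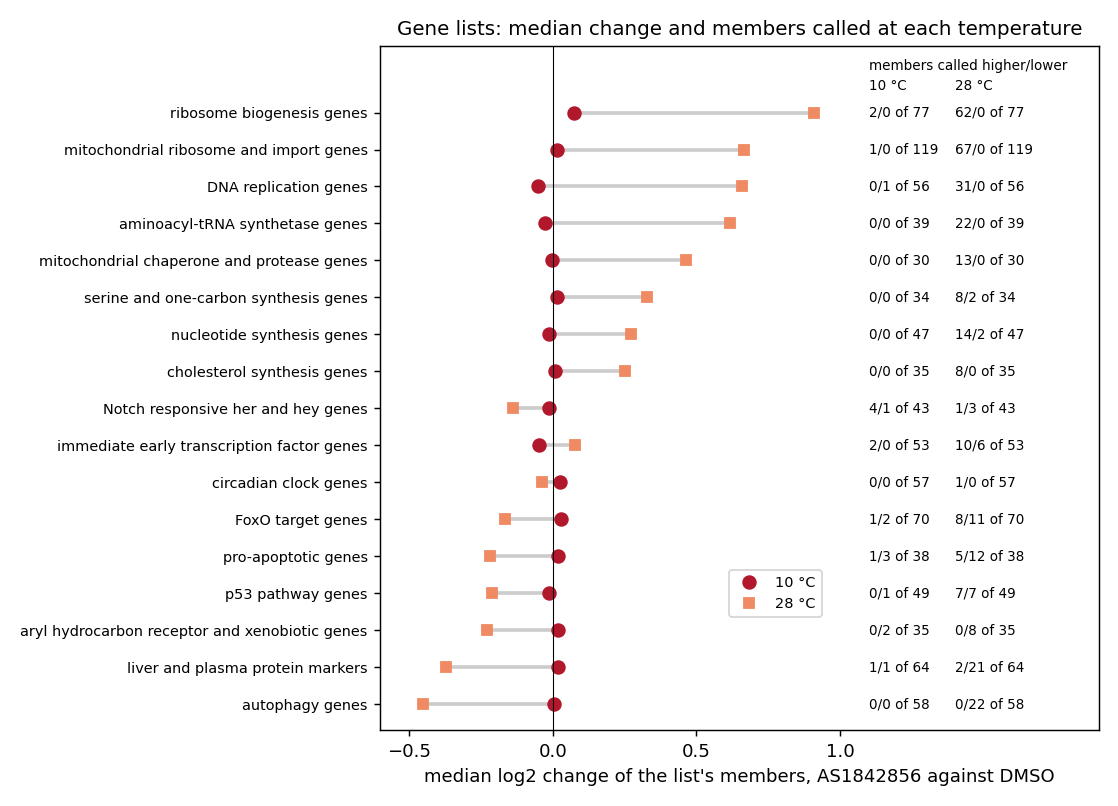
Median log2 change of 17 gene lists with AS1842856 at 10 °C (circles, 10C_AS against 10C_DMSO) and at 28 °C (squares, 28C_AS against 28C_DMSO), with the numbers called higher and lower beside each list. The medians at 10 °C lay close to 0, while those at 28 °C reached 0.91 for ribosome biogenesis and -0.45 for autophagy. Of all genes 0.925% were called at 10 °C and 12.2% at 28 °C.

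The rises had a different makeup. Notch-responsive her and hey genes, which encode repressors that keep neural progenitors undifferentiated, gave the list with the most members called higher, 4 of 43, beside 1 lower and a median of -0.01, where 0.407% of all genes were called higher and 0.519% lower. her4.1 had 8.18, 10.5 and 8.5 in 10C_AS, against 4.0, 4.3 and 4.4 in 10C_DMSO, a change of 0.94 ± 0.16 (SE, limma adjusted p = 0.00270). Every 10C_AS library lay well above every control, and the call held with each library left out. No overlap and a call without 10C_DMSO replicate 1 were conditions for naming her4.1 among the largest rises. her4.2 had 4.61, 6.86 and 4.39 in 10C_AS, against 2.37, 2.25 and 1.76 in 10C_DMSO, a change of 0.99, and her4.4 changed by 0.64. The her4 genes are near-identical copies, and the quantification could split reads between them, so the copies cannot be counted as separate evidence. The call of her4.4 held in 1 of the 6 fits that left out 1 library.

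The remaining calls of the Notch list came from her6, which had 2 identifiers that moved in opposite directions. One had 21.9, 20.1 and 20 in 10C_AS, against 5.53, 6.53 and 6.82 in 10C_DMSO, a change of 1.57, and the other changed by -0.61. With both identifiers of her6 summed the change was 0.36, which was under the fold threshold.

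armc10 showed the largest rise among genes with a symbol of their own, at least 5 scaled TPM in a group and a call also without 10C_DMSO replicate 1. It encodes an armadillo repeat protein. Levels were 223, 239 and 225 in 10C_AS, against 65.0, 108 and 102 in 10C_DMSO, a change of 1.35 ± 0.14 (SE, limma adjusted p = 1.56e-05). Replicate 1 was the lowest control by far, and without it the change of armc10 was 1.12. A call without that library was a condition of the choice. golga7, whose product helps attach palmitate to Ras proteins, had 72.4, 75.9 and 73.5 in 10C_AS, against 44.3, 46.2 and 44.3 in 10C_DMSO. Its groups lay far apart relative to the spread within each, with a change of 0.71 ± 0.07 (SE, limma adjusted p = 1.46e-05).

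Immediate early transcription factor genes gave 2 calls among 53, both higher, with a median of -0.05 for the list. Of all genes 0.407% were called higher and 0.519% lower. egr4 had 73.5, 80.8 and 81.0 in 10C_AS, against 52.9, 55 and 44.3 in 10C_DMSO, a change of 0.62 (limma adjusted p = 0.00155). fosaa had 32.7, 31.9 and 35.8 in 10C_AS, against 21.6, 23 and 19.6 in 10C_DMSO, also a change of 0.62 (limma adjusted p = 0.00721). Both genes are induced within minutes by growth factors and neuronal activity. The call of egr4 held in 5 and that of fosaa in 4 of the 6 fits that left out 1 library. None of 38 ERK feedback and output genes was called, beside 0.925% of all genes.

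Other rises were spread over unrelated functions. lin52, a subunit of the DREAM complex that represses cell cycle genes, had 18.8, 20.1 and 9.80 in 10C_AS, against 6.41, 6.47 and 6.06 in 10C_DMSO. 10C_AS replicate 3 was far below the other 10C_AS libraries but still above all controls, and the change was 1.18 (limma adjusted p = 0.00853). rhcga, an ammonia transporter of ionocytes in fish skin and gill, had 65.3, 69.5 and 67.1 in 10C_AS, against 43.9, 22.6 and 36.9 in 10C_DMSO. Its change of 1.00 (limma adjusted p = 0.0196) was called in 2 of the 6 fits that left out 1 library. gpr186, an orphan receptor gene, had 51.8, 56.0 and 54.9 in 10C_AS, against 28.8, 37.0 and 31.5 in 10C_DMSO, a change of 0.73. The other large rises were in ftr86, zranb2 and stmn4l, at 0.88, 0.77 and 0.68.

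Most cellular programmes gave at most 2 calls at 10 °C, where 0.925% of all genes were called. Ribosome biogenesis had 2 of 77 higher (npm1a and rrs1), beside 0.407% of all genes. Neither of them was called without 10C_DMSO replicate 1. rrs1 had 19.3, 18.7 and 19.5 in 10C_AS, against 11.7, 12.6 and 12.9 in 10C_DMSO, a change of 0.59 that was 0.55 without that library. The called npm1a identifier is 1 of 2 for that symbol. Its change of 0.69 was 0.62 without 10C_DMSO replicate 1 (limma adjusted p = 0.162), the more abundant npm1a identifier changed by 0.30 with no call, and both summed changed by 0.37 with no call. Aminoacyl-tRNA synthetases (39 identifiers), mitochondrial chaperones and proteases (30), autophagy (58), cholesterol synthesis (35), cytosolic heat shock (55) and clock genes (57) had 0 calls in either direction. With so small a share called over all genes, 0 calls in lists of this size do not show that a list was unmoved. The 9 listed messenger genes of the mitochondrial genome all had positive changes. They summed to 122500 to 136900 scaled TPM in 10C_AS, against 87520 to 120700 in 10C_DMSO. The sum of 87520 was that of 10C_DMSO replicate 1. The median change of these 9 genes was 0.19 with that library and 0.12 without it. mt-nd6 alone of the 9 genes was called, at 5184, 5176 and 5717 in 10C_AS, against 1580, 3474 and 3469 in 10C_DMSO. Its change of 1.00 was 0.62 and not called without 10C_DMSO replicate 1, the library with the low value. apoc1, an apolipoprotein gene of liver and yolk, showed the same, with 876, 913 and 908 in 10C_AS, against 409, 601 and 608 in 10C_DMSO, and its change of 0.76 was 0.57 without replicate 1.

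**Figure D4:**
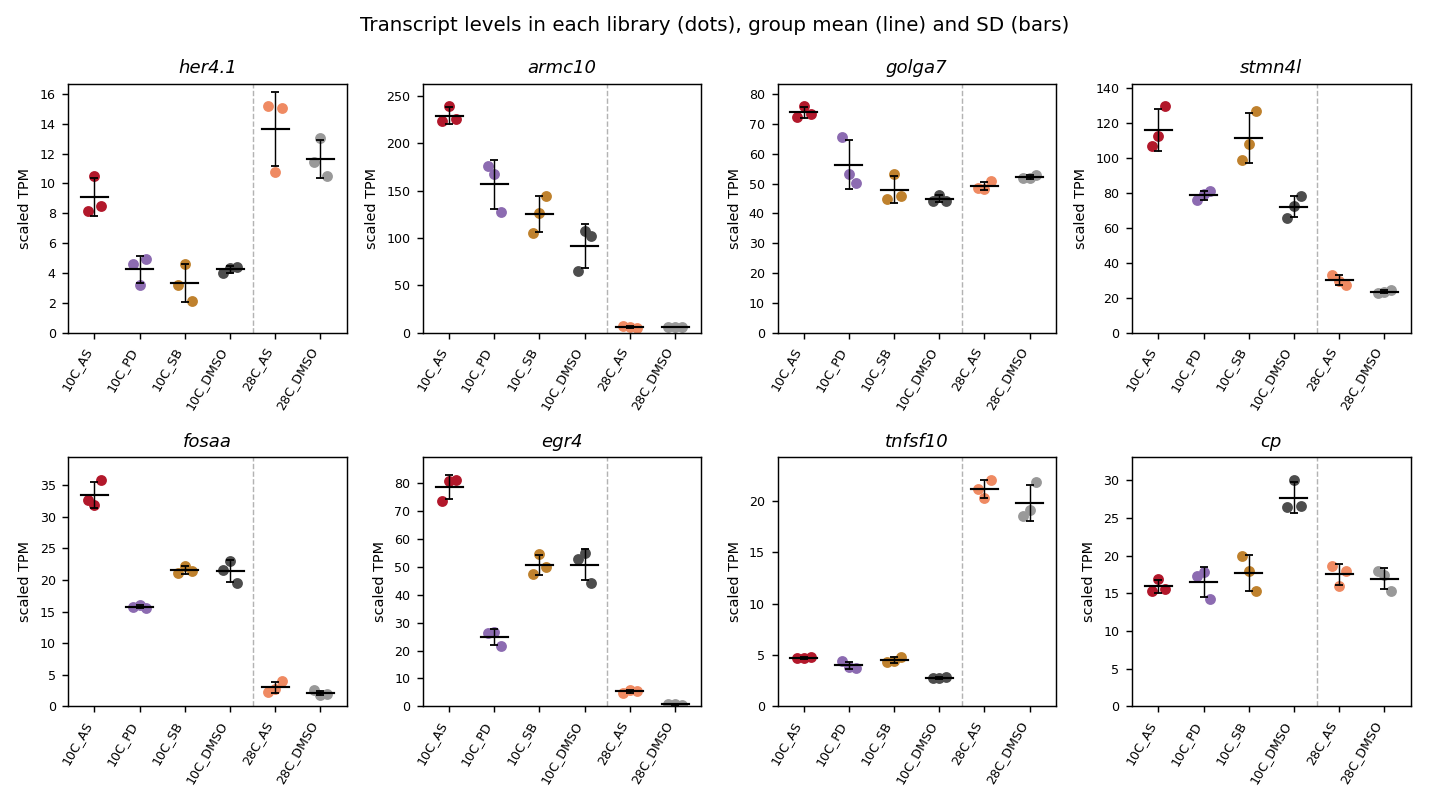
Scaled TPM of 8 genes in each library of 10C_AS, 10C_PD, 10C_SB, 10C_DMSO, 28C_AS and 28C_DMSO, with the group mean as a line and the SD of 3 libraries as bars. armc10 reached 223 to 239 in 10C_AS, against 65.0 to 108 in 10C_DMSO, and cp is the single gene of the 8 that fell, with 10C_PD and 10C_SB at means of 16.4 and 17.7.

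Of the 23 genes with the largest rises and falls that met the naming rule, 12 fell and 11 rose, and 16 were called with each of the 6 libraries left out in turn. The naming rule already required a call without 10C_DMSO replicate 1, so these 16 are no measure for the other calls. Of all 223 called genes, 154 lost their call in that fit. In a fit of the 6 libraries alone, which has a spread estimated from far fewer samples, 38 genes were called, and 7 of the 23 were among them, namely golga7, ubald1b, gbp, bbc3, foxq1b, cp and pim2. Over the 23 genes the limma adjusted p in that fit ran from 0.00812 to 0.248. It was 0.128 for ccng2, 0.072 for herpud1 and 0.0809 for armc10. The main fit shares the spread of a gene over all groups. The residual SD was 0.240 to 0.275 in the 10C_DMSO libraries and 0.212 to 0.255 in the libraries of the other groups. The shared spread may therefore be too small for this comparison, and its adjusted p too low. The reason for the smaller count was not tested. Of the 223 called genes 41.7% had a symbol that other identifiers also carried, against 17.8% of all genes, and the share was 48.8% among the falls. With the levels of all identifiers of a symbol summed, 144 of 21863 symbols were called (0.659%), 75 higher (0.343%) and 69 lower (0.316%).

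The same dose at 28 °C gave a much wider response. AS1842856 against DMSO called 2940 genes at 28 °C, 12.2% of all, of which 1539 were higher (6.39%) and 1401 lower (5.81%). The 2 comparisons share no library. Of the 223 genes called at 10 °C, 67 were called in the same direction at 28 °C and 5 in the opposite one, so that the shared genes made up 30.0% of the 10 °C calls and 2.28% of the 28 °C calls. Among the 69 genes called with and without 10C_DMSO replicate 1, 27 (39.1%) were called in the same direction at 28 °C. The median size of the change over called genes was 0.80 at both temperatures. 28C_DMSO replicate 1 also stood apart from its group, with 7.30% of TPM from the mitochondrial genome against 9.91% and 9.69%, and without it the count at 28 °C moved by less than 1.5-fold.

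The difference itself was tested as the change at 10 °C minus the change at 28 °C. It was called in 2593 genes (10.8%), 1293 with a positive (5.36%) and 1300 with a negative difference (5.39%). Of the genes called at 28 °C, 61.5% had a called difference. Genes called higher at 28 °C had a median change of 0.07 at 10 °C and of 0.79 at 28 °C, and genes called lower there had -0.04 at 10 °C and -0.82 at 28 °C. The choice of genes by their 28 °C values makes the 28 °C medians large, so these medians are a description.

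Several genes that fell at 10 °C fell further at 28 °C. bbc3 averaged 0.979 ± 0.109 in 28C_AS and 4.83 ± 0.295 in 28C_DMSO (SD, n = 3 each), so that its change was -0.91 at 10 °C and -1.56 at 28 °C, and the difference of 0.65 was called (limma adjusted p = 0.00332). gbp changed by -1.57 at 28 °C, herpud1 by -1.58 and bada by -1.50, with differences of 0.70, 0.91 and 0.84 that were all called. ccng2 changed by -1.43, pim2 by -1.36 and ubald1b by -1.19 at 28 °C, and their differences were not called. foxo4 averaged 10.0 ± 0.599 in 28C_AS and 23.3 ± 0.380 in 28C_DMSO (SD, n = 3 each), a called change of -1.14, and its difference of 0.75 was called (limma adjusted p = 2.36e-07). fbxo32 changed by -1.43 at 28 °C, where it was called. foxq1b changed by -0.59, mcl1b by -0.59 and rhcga by 1.24 at 28 °C, all called there, and their differences were not called.

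Another set moved at 10 °C and not at 28 °C. armc10 changed by 0.05 at 28 °C, golga7 by -0.09, her4.1 by 0.20, cp by 0.05, atp8a2 by -0.01 and diabloa by 0.16, and the difference was called in each of them. For armc10 the 28 °C levels were far lower, at means of 5.93 in 28C_AS and 5.68 in 28C_DMSO. her4.1 was higher at 28 °C, at means of 13.7 in 28C_AS and 11.6 in 28C_DMSO. tnfsf10 changed by 0.09 at 28 °C, with means of 21.2 in 28C_AS and 19.8 in 28C_DMSO, and the difference of 0.51 did not reach the fold threshold. egr4 went the other way, with a change of 0.62 at 10 °C beside 1.87 at 28 °C. Its levels were high in the cold, at means of 78.4 in 10C_AS and 50.7 in 10C_DMSO, against 5.34 in 28C_AS and 0.734 in 28C_DMSO.

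**Figure D5:**
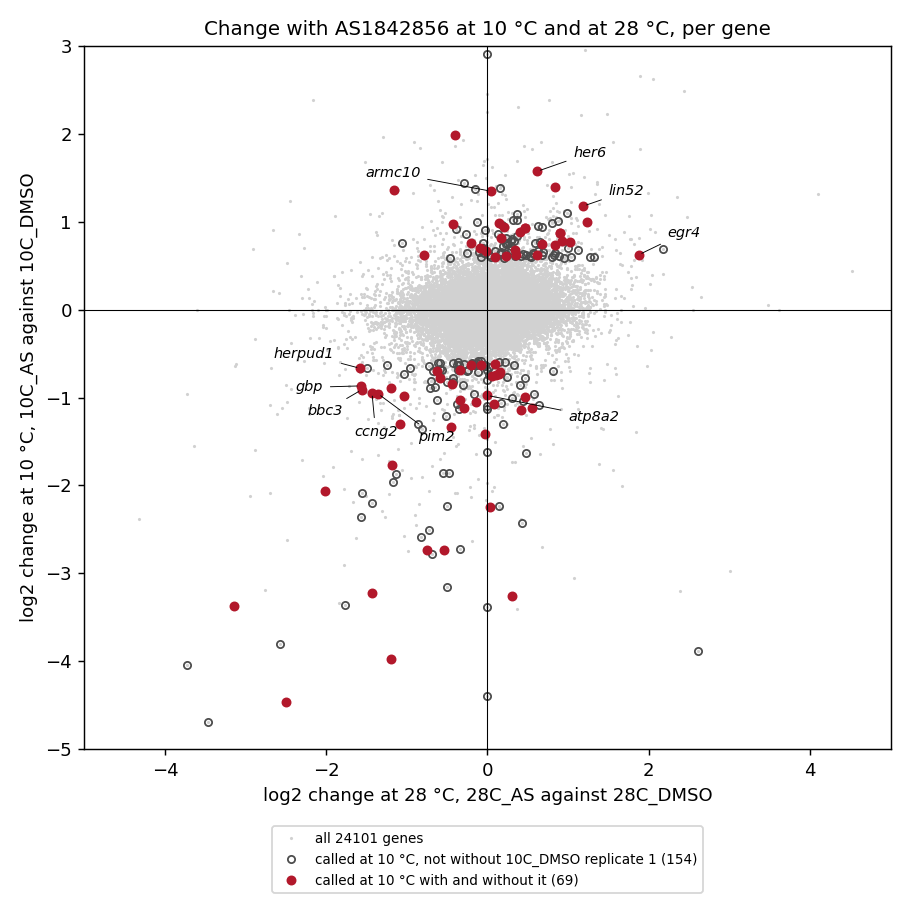
Log2 change with AS1842856 for all genes, at 28 °C (x axis) and at 10 °C (y axis), with the 69 genes called at 10 °C with and without 10C_DMSO replicate 1 filled and the other 154 called genes open. Falls such as bbc3 lie at negative values on both axes, while armc10 and atp8a2 lie near 0 at 28 °C, and 5 genes lie outside the range drawn.

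Several lists had many members called higher at 28 °C and few or none at 10 °C. Of all genes 0.407% were called higher at 10 °C and 6.39% at 28 °C, and the difference was called in 10.8%. Ribosome biogenesis had 2 of 77 identifiers higher at 10 °C with a median of 0.07, against 62 of 77 and a median of 0.91 at 28 °C, and the difference was called in 53. Mitochondrial ribosome and import genes had 1 of 119 higher at 10 °C, against 67 of 119 at 28 °C. Aminoacyl-tRNA synthetase genes had 0 of 39 higher at 10 °C and 22 at 28 °C, and DNA replication genes 0 of 56 at 10 °C, with 1 lower, and 31 at 28 °C. Not all lists of growth did so, since ribosomal protein genes had 1 of 106 higher at 10 °C and 2 at 28 °C, and mitosis genes 0 of 45 at 10 °C and 3 at 28 °C. Single genes show the contrast. hspe1, the small chaperone of the mitochondrial matrix, changed by 0.01 at 10 °C and by 1.05 at 28 °C, phb by 0.00 and 0.90, and sars, the seryl-tRNA synthetase gene, by 0.12 and 0.86.

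Autophagy genes had 0 of 58 lower at 10 °C with a median of 0.01, and 22 at 28 °C with a median of -0.45. The difference was called in 21 of them. Of all genes 0.519% were called lower at 10 °C and 5.81% at 28 °C. sqstm1, the autophagy receptor p62, changed by -0.02 at 10 °C and by -1.10 at 28 °C, and gabarapb by -0.02 and -0.62. FoxO target genes had 1 higher and 2 lower of 70 at 10 °C, against 8 higher and 11 lower at 28 °C. The 28 °C shares over all genes were 6.39% higher and 5.81% lower. ins, the insulin gene, changed by 0.10 at 10 °C and by -0.76 at 28 °C.

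For the difference between temperatures, genes were named under limits on level, overlap and symbol, which leave out shared symbols. A call at 10 °C was not required. Under these limits the 5 largest differences each way were in genes with no call at 10 °C. rpe65a, an isomerase of the visual cycle, had 86.2, 84.8 and 85.9 in 10C_AS, against 87.3, 86.8 and 93.6 in 10C_DMSO, a change of -0.06 (limma adjusted p = 0.733), beside a change of -2.39 at 28 °C. gck, the glucose sensor kinase of liver, changed by 0.21 at 10 °C and by -2.66 at 28 °C. Its libraries spread from 3.32 to 7.98 in 10C_AS and from 3.38 to 7.39 in 10C_DMSO. fbxo25 changed by -0.33 and -2.88, and pcmtd2a by 0.00 and -2.46. In the other direction notum1a, a Wnt inhibitor, had 3.05, 3.14 and 3.35 in 10C_AS, against 3.37, 2.67 and 3.36 in 10C_DMSO, a change of 0.02, beside 1.95 at 28 °C. cad, which starts pyrimidine synthesis, changed by -0.33 at 10 °C and by 1.62 at 28 °C.

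The kinase inhibitors PD0325901 and SB203580 were given to larvae at the same temperature and for the same time. They show which changes also set 10C_AS apart from drug-treated larvae. The doses differ, and so do the targets. 10C_AS against 10C_PD called 105 genes (0.436%), 63 higher (0.261%) and 42 lower (0.174%), and 10C_AS against 10C_SB called 93 (0.386%), 34 higher (0.141%) and 59 lower (0.245%). Both use the 10C_AS libraries of the comparison with 10C_DMSO, so they are not separate evidence, and values are given side by side. Of the 69 genes called with and without 10C_DMSO replicate 1, 23 were called the same way against 10C_PD and 40 against 10C_SB. Against both it was 21 of the 69. bbc3 averaged 5.07 in 10C_AS, 10.9 in 10C_PD, 12.5 in 10C_SB and 10.4 in 10C_DMSO. Its direct changes were -0.97 against 10C_PD and -1.15 against 10C_SB, both called. gbp, ubald1b, herpud1, ccng2, pim2 and diabloa were likewise called lower against both. gbp averaged 23.1 in 10C_AS, 45.9 in 10C_PD, 46.7 in 10C_SB and 43.1 in 10C_DMSO. her4.1 and ftr86 were called higher against both, by 0.95 and 1.25 for her4.1 and by 1.38 and 1.16 for ftr86.

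Other genes were called directly against at most 1 of the other inhibitor groups. cp averaged 15.9 in 10C_AS, 16.4 in 10C_PD, 17.7 in 10C_SB and 27.7 in 10C_DMSO, and its direct changes were -0.04 against 10C_PD and -0.14 against 10C_SB. Among these 4 groups 10C_DMSO alone was high for cp, and the same 3 control libraries enter all 3 inhibitor comparisons. tnfsf10 averaged 4.74 in 10C_AS, 4.01 in 10C_PD, 4.51 in 10C_SB and 2.78 in 10C_DMSO, with direct changes of 0.20 and 0.06. zranb2 averaged 46.8 in 10C_AS, 42.3 in 10C_PD, 34.3 in 10C_SB and 26.9 in 10C_DMSO. stmn4l averaged 116 in 10C_AS and 111 in 10C_SB, against 78.6 in 10C_PD and 72.0 in 10C_DMSO. atp8a2 averaged 15.2 in 10C_AS, 23.7 in 10C_PD, 22.5 in 10C_SB and 30.7 in 10C_DMSO. It was called directly against neither inhibitor group, and the same held for flna, lin52 and rhcga. The lack of a call does not show equal levels, since rhcga averaged 67.3 in 10C_AS, 38.6 in 10C_PD and 37.8 in 10C_SB. armc10 was intermediate, at 229 in 10C_AS, 157 in 10C_PD, 125 in 10C_SB and 91.6 in 10C_DMSO, and was called higher directly against 10C_SB (0.88) but not against 10C_PD (0.56).

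Genes of the direct comparison with 10C_PD were likewise named under limits on level, overlap and symbol, without a call against 10C_DMSO being required. Under these limits, which leave out shared symbols, the 5 largest positive changes against 10C_PD were in genes whose change against 10C_DMSO was not called. ier2a, an immediate early gene, had 257, 237 and 233 in 10C_AS, against 243, 220 and 249 in 10C_DMSO, a change of 0.03 in which the groups overlapped, while 10C_PD averaged 41.8. The direct change against 10C_PD was 2.51 for ier2a, 2.30 for fosl1a, 2.08 for egr3, 1.96 for ptgs2b and 1.66 for junbb. Their changes against 10C_DMSO lay between -0.26 for ptgs2b and 0.03 for ier2a, and none was called.

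The relation to cold itself is given as levels only, since the change with AS1842856 and the change with cold share the 10C_DMSO libraries. Cold alone, in 10C_DMSO against 28C_DMSO, called 3806 genes (15.8%), 2104 higher (8.73%) and 1702 lower (7.06%). bbc3 averaged 5.07 in 10C_AS and 10.4 in 10C_DMSO, beside 4.83 in 28C_DMSO, and pim2 4.63, 9.93 and 5.52. herpud1 averaged 21.9 in 10C_AS and 35.4 in 10C_DMSO, beside 23.4 in 28C_DMSO, and mcl1b 64.0, 98.1 and 62.8. For these 4 genes the level in cold-exposed larvae with the inhibitor was close to that of vehicle larvae kept warm, a comparison that was not tested. Warm larvae with the inhibitor were lower still for bbc3, pim2 and herpud1, at means of 0.979, 1.54 and 7.18 in 28C_AS. With the inhibitor, too, bbc3, pim2 and herpud1 were therefore higher at 10 °C than at 28 °C. gbp averaged 23.1 in 10C_AS and 43.1 in 10C_DMSO, beside 11.7 in 28C_DMSO, and foxq1a 28.7, 47.3 and 4.12, which left both well above the warm level. For armc10, egr4, fosaa and gpr186 the level in 10C_AS lay still further from the warm level than that in 10C_DMSO, for example 54.2 in 10C_AS and 32.4 in 10C_DMSO, beside 0.934 in 28C_DMSO for gpr186. her4.1 and tnfsf10 were lower in the cold, and AS1842856 left them nearer to the warm level, at 9.07 in 10C_AS and 4.23 in 10C_DMSO, beside 11.6 in 28C_DMSO for her4.1.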

How the data were processed

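RNA-seq libraries of whole zebrafish larvae were quantified by the authors with Salmon 0.13.1 against the Ensembl zebrafish transcripts and summarised per gene, and the deposited table holds TPM values of genes that reached 1 TPM in all replicates of at least 1 group. The study's count-based testing could not be repeated on TPM, so the number of calls here is not comparable with the study's own. Here libraries were put on 1 scale by median-of-ratios size factors (0.940 to 1.11), and log2(scaled TPM + 1) was tested with limma 3.58.1 in R 4.3.3 (trended prior, 1 mean per group, 27 libraries, 18 residual degrees of freedom, Benjamini-Hochberg adjustment). A call needed an adjusted p of at most 0.05 and a 1.5-fold change. On simulated data the script was tested for recovery of known changes.

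Named genes were the 12 largest rises and falls with at least 5 scaled TPM in a group, no overlap, a call also without 10C_DMSO replicate 1 and an unshared symbol (11 rises qualified), all FoxO factors, genes the study names, called or most abundant members of gene lists, and the 5 largest changes each way of the other contrasts. Symbols that are clone or locus names were left out of the largest changes. Only examples of the last 2 kinds are printed. Members and lists were chosen with earlier results of these data known. Alternatives were other pseudocounts, scalings, level filters, weights, priors, a replicate block, the compared libraries alone and each library left out, plus identifiers of a symbol summed, chosen after seeing the data.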

Additional observations from a re-analysis of the deposited data

Results flagged for a closer look

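The effect of AS1842856 differed between 10 °C and 28 °C by limma's test of the difference (10 °C change minus 28 °C change) in 2593 genes, and the genes named in the text with a called difference are given here by its value. No explanation was tested.

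A positive difference in genes lower at both temperatures, and less so at 10 °C, was seen in bbc3 (0.65), gbp (0.70), herpud1 (0.91), bada (0.84) and foxo4 (0.75), the last without a call at 10 °C. Genes that rose at 10 °C and showed a positive difference were armc10 (1.3), golga7 (0.79), her4.1 (0.73), her4.2 (0.85), her4.4 (0.90), the higher identifier of her6 (0.96), apoc1 (1.82) and the higher identifier of zgc:112160 (1.14). Falls at 10 °C that were absent at 28 °C gave negative differences in atp8a2 (-0.97), cp (-0.81), diabloa (-0.87) and an identifier of cdc6 (-3.55). For cp, 10C_DMSO averaged 27.7, beside 15.9 to 17.7 in the inhibitor groups at 10 °C and 16.9 in 28C_DMSO. With identifiers summed, the change at 10 °C was -0.21 for cdc6, 0.36 for her6 and 0.02 for zgc:112160, with no call. For her4.2 it was 0.68 and called.

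Genes with no call at 10 °C and lower at 28 °C were gck (2.87), fbxo25 (2.55), pcmtd2a (2.45), rpe65a (2.33), marveld3 (2.13), nupr1b (1.26), sqstm1 (1.08), fbxo32 (1.01), ins (0.86), foxo1a (0.65) and gabarapb (0.61), of which foxo1a had a change of -0.40 at 28 °C and was not called there. Genes higher at 28 °C gave negative differences in notum1a (-1.93), cad (-1.95), chia.3 (-1.97), mpv17l2 (-1.76), igfbp1a (-1.25), hspe1 (-1.04), junbb (-1.03), phb (-0.91), fosl1a (-0.88), kars (-0.82), ier2a (-0.78) and sars (-0.74), none called at 10 °C, and in egr4 (-1.25), rrs1 (-0.72) and 1 of 2 identifiers of npm1a (-1.48), which were called higher at both temperatures. Both npm1a identifiers summed changed by 0.37 at 10 °C and were not called. 5_8S_rRNA had a difference of -3.68, on levels that spread from 34.4 to 574 over the 10C_AS libraries and from 416 to 722 over the 10C_DMSO libraries.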

How the results depend on the processing

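The count of 223 genes called at 10 °C was 244 and 230 with pseudocounts of 0.1 and 0.5, 207 with TPM as deposited, 199 after quantile normalization, 184 among genes with at least 5 TPM and 210 with a prior without trend. It was 137 with library weights (54 higher, 83 lower), 38 in a fit of the compared libraries alone (10 higher, 28 lower) and 144 with identifiers of a symbol summed (75 higher, 69 lower). Leaving out 1 library gave 88 to 290 in total, 40 to 154 higher and 48 to 136 lower, with the lowest values without 10C_DMSO replicate 1 and the highest without 10C_DMSO replicate 2. The higher calls made up 43.9% of all calls, 26.3% in the fit of the compared libraries alone and 53.1% without 10C_DMSO replicate 2. The 93 calls against 10C_SB were 46 in a fit of the compared libraries alone and 47 to 113 with 1 library left out, lowest without 10C_SB replicate 1 and 53 without replicate 2. Counts at 28 °C, by temperature and against 10C_PD stayed within 1.5 times under every alternative run. Of the single genes called at 10 °C, 6 changes reversed their sign, all with identifiers summed, while some changes near 0 that were not called, such as those of foxo3b and gck, changed sign with 1 library left out. The summed changes were -0.0706 for ndufb4, -0.0444 for rps13, 0.36 for the lower identifier of her6, -0.0297 for psmc6, 0.0443 for pvalb2 and 0.0171 for the lower identifier of zgc:112160. The summing itself replaces an identifier by all identifiers of its symbol, and the other causes were not tested.

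With the replicate number as a block 236 genes were called, 107 higher and 129 lower. Deviations of same-numbered 10C_AS and 10C_DMSO libraries correlated at 0.0438, 0.0295 and 0.118, and differently numbered ones at -0.0945 to 0.0511. The same number was the best match for 10C_AS replicates 2 and 3, while 10C_AS replicate 1 correlated best with 10C_DMSO replicate 2. With correlations this weak the numbers were not taken to pair the samples. TPM keep no depth, so the precision of low levels is unknown.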

Other observations

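Of the 84 shared symbols with a called identifier, 7 were called after their identifiers were summed, and in 6 symbols identifiers were called in opposite directions. Of the 125 falls 21 were listed at 0 in all 10C_AS libraries, and 16 of these had a shared symbol. An identifier of cdc6 was listed at 0 in all 10C_AS libraries, while the symbol as a whole changed by -0.21. An identifier of mylpfa, a myosin light chain gene of fast muscle, changed by -2.06 and the whole symbol by -0.10. Of 81 skeletal muscle identifiers 0 were called higher and 2 lower, with a median of -0.12. Of all genes 0.407% were called higher and 0.519% lower at 10 °C. Liver and plasma protein markers had 1 higher (apoc1) and 1 lower (cp) of 64 at 10 °C, beside 2 higher and 21 lower at 28 °C. The 28 °C shares over all genes were 6.39% higher and 5.81% lower.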
